A study of Homo sapiens with 20 samples.

Results

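The 10 genes described here encode the core machinery that makes microRNAs and puts them to work: DROSHA, DGCR8, XPO5, RAN, DICER1, TARBP2, AGO1, AGO2, AGO3 and AGO4. They were taken by gene symbol from the gene count tables of the series. Each symbol matched 1 of the 58735 identifiers, and all 10 passed the filter on low counts. The cells were AC16, an established human cardiomyocyte line, grown at an air–liquid interface, and 5 libraries came from filtered air and 5 from e-cigarette aerosol. The labels describe 5 biological replicates per group, with no other agent or genotype, and they give neither the dose of the aerosol nor the length of exposure. Small-RNA (miRNA) libraries, 10 in number, are labelled too but not analysed here, so the values below concern mRNA alone and not the microRNAs themselves.

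A microRNA starts as a hairpin within a longer nuclear transcript. The nuclease DROSHA and its RNA-binding partner DGCR8, together called the Microprocessor, cut the hairpin out, and the export receptor XPO5 carries it to the cytoplasm with RAN in its GTP-bound form. DICER1, helped by the double-stranded RNA-binding protein TARBP2, trims the hairpin to a short duplex, and an Argonaute protein (AGO1 to AGO4) keeps 1 strand as the guide to target mRNAs. Among the human Argonautes AGO2 is best known for cutting a fully matched target. DGCR8 mRNA carries hairpins that the Microprocessor itself cuts, which is a known feedback on the complex.

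The hairpins inside the members were looked up first, since they tie the genes to the microRNAs they make. The spans of DGCR8 and DICER1 hold the genes MIR3618 and MIR1306 and the gene MIR3173, respectively. The mature sequences below are from RefSeq (GRCh38.p14), written 5′ to 3′, with the seed, bases 2 to 8, in capitals.
hsa-miR-3618: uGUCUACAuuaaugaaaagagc
hsa-miR-1306-5p: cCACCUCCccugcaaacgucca
hsa-miR-1306-3p: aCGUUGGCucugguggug
hsa-miR-3173-5p: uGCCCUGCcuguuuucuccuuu
hsa-miR-3173-3p: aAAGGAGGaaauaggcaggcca
No seed was shared among the 5. In the mRNA libraries these genes were barely counted. MIR3618 had 1 or 2 counts and MIR1306 had 1 count in every library, and MIR3173 had between 0 and 3. No fold change is given at such counts.

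None of the 10 genes passed the test for a change after the aerosol. The count of members past the threshold was 0 (adjusted p under 0.05 by edgeR's quasi-likelihood test, with Benjamini-Hochberg adjustment over 20166 genes). Of all genes tested, 3.01% passed, 1.62% higher and 1.39% lower after the aerosol. DESeq2 and limma-voom also called 0 members, against 7.92% and 3.33% of all genes. At an unadjusted p under 0.05 there was 1 member, AGO3, against 18.3% of all genes. The members' log2 fold changes, given throughout as aerosol over air, lay between -0.20 and 0.31. Their median was 0.03, and that of all genes tested was 0.00. For 5 of the 10 the 95% interval of the fold change lay within 1.5-fold in either direction, and the widest interval, that of AGO1, reached 1.8-fold. An adjusted p above the threshold does not show that a gene stayed the same, and these intervals give the changes that the 5 libraries per group leave possible.

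**Figure D1:**
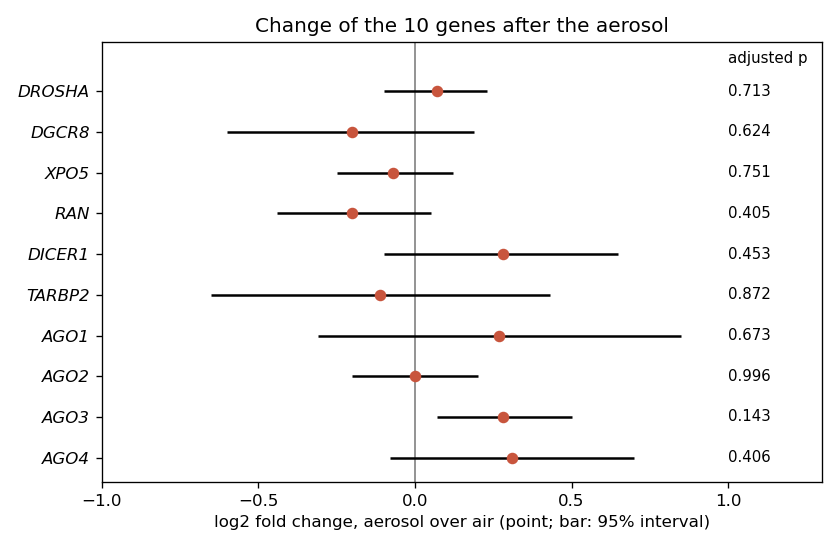
Log2 fold change of each of the 10 genes, aerosol over air (horizontal axis), with its 95% interval and its edgeR adjusted p. All intervals but that of AGO3 include 0, and the lowest adjusted p is 0.143.

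Gene counts summed to between 60482726 and 88806394 per library. Mitochondrially encoded genes took 7.75 to 10.3% of counts in the air libraries and 12.4 to 19.5% in the aerosol libraries. The nuclear RNA MALAT1 was at 2797 to 3765 CPM (counts scaled by library size with trimmed-mean factors, as edgeR gives them) in air and at 7486 to 44762 CPM after the aerosol. Aerosol libraries 4 and 5 were highest in both, and they lay apart from the other 8 libraries on the first principal component. Values without both are given beside several of the results below, and the part of these differences in any result was not tested. The cardiomyocyte label had little support in marker genes. Of 12 cardiomyocyte markers 2, GATA4 and TTN, averaged at least 1 CPM, and 6 (TNNT2, MYH6, MYH7, MYL2, MYL7 and NKX2-5) had no count in any library, where 3 counts would be at most 0.056 CPM. The summed cardiomyocyte markers were at 28.2 to 51.7 CPM in air and 36.7 to 64.0 CPM after the aerosol. The sum came mostly from TTN, at 20.5 to 31.0 CPM in air and 28.6 to 52.7 CPM after the aerosol. The rest was mostly GATA4, at 5.92 to 21.2 CPM and 7.09 to 15.6 CPM, and both genes overlapped between groups. All 10 fibroblast and mesenchymal markers averaged at least 1 CPM, with sums of 9868 to 10730 CPM and 7714 to 8398 CPM. VIM, which took the most counts of them, fell (log2 fold change -0.50, edgeR adjusted p = 0.00741). VIM was at 5432 to 5659 CPM in air and 3470 to 4304 CPM after the aerosol. FN1 was also lower without overlap, at 1907 to 2081 CPM in air and 1473 to 1857 CPM after the aerosol. VIM and FN1 were named after their values were seen. The other markers of this list, COL1A1, COL3A1 and LUM among them, overlapped between groups. Endothelial markers summed to at most 3.71 CPM, epithelial markers to 175 to 265 CPM in air and 130 to 149 CPM after the aerosol, mostly KRT18, and leukocyte markers to 33.2 to 60.6 CPM over all libraries, mostly CD68, while CD3E had no count. In bulk RNA, fewer cells that express a gene and less of its RNA per cell cannot be told apart.

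Of the Microprocessor genes, DROSHA varied little between libraries and DGCR8 varied more. DROSHA (chromosome 5, 31400494 to 31532093 in GRCh38.p14, as for all positions below) was at 277, 275, 254, 270 and 284 CPM in air replicates 1 to 5. Aerosol replicates 1 to 5 were at 268, 273, 308, 293 and 284 CPM. The groups overlapped, with aerosol libraries 3 and 4 above every air library. Its mean was 272 ± 11.4 CPM in air and 285 ± 16.2 CPM after the aerosol (SD, n = 5 per group). The log2 fold change of 0.07 ± 0.08 (± standard error here and below, edgeR adjusted p = 0.713) reversed its sign under scaling by library size alone. Its SD in air, 0.06 on the log2 scale, was undercut by 2.83% of the 10970 genes with at least 5 CPM.

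DGCR8 (chromosome 22, 20080241 to 20111872) was at 33.7, 34.7, 30.2, 25.1 and 29.4 CPM in air. After the aerosol replicates 1, 2 and 3 were at 32.4, 30.8 and 31.0 CPM, and replicates 4 and 5 at 20.2 and 18.6 CPM. Aerosol libraries 1 to 3 thus lay within the air range and libraries 4 and 5 below it. DGCR8 had a log2 fold change of -0.20 ± 0.18, with a 95% interval from -0.60 to 0.19 (edgeR adjusted p = 0.624). Without libraries 4 and 5 it was 0.03 (edgeR adjusted p = 0.955). The same 2 libraries had the highest mitochondrial shares, 18.1 and 19.5%.

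The DGCR8 to DROSHA ratio within a library does not depend on scaling between libraries. Its log2 value was -3.16 ± 0.18 in air and -3.46 ± 0.41 after the aerosol (SD, n = 5 per group), a difference of -0.30 (two-sided exact permutation test, p = 0.198, and 0.389 adjusted over 7 ratios and shares). The smallest p that this test can give is 0.00794. Aerosol libraries 4 and 5, at -3.85 and -3.93, lay below all air libraries, which ranged from -3.42 to -2.99. Without them the difference was -0.01. Counts were not divided by transcript length, so the ratio compares libraries and not the abundance of the 2 mRNAs.

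**Figure D2:**
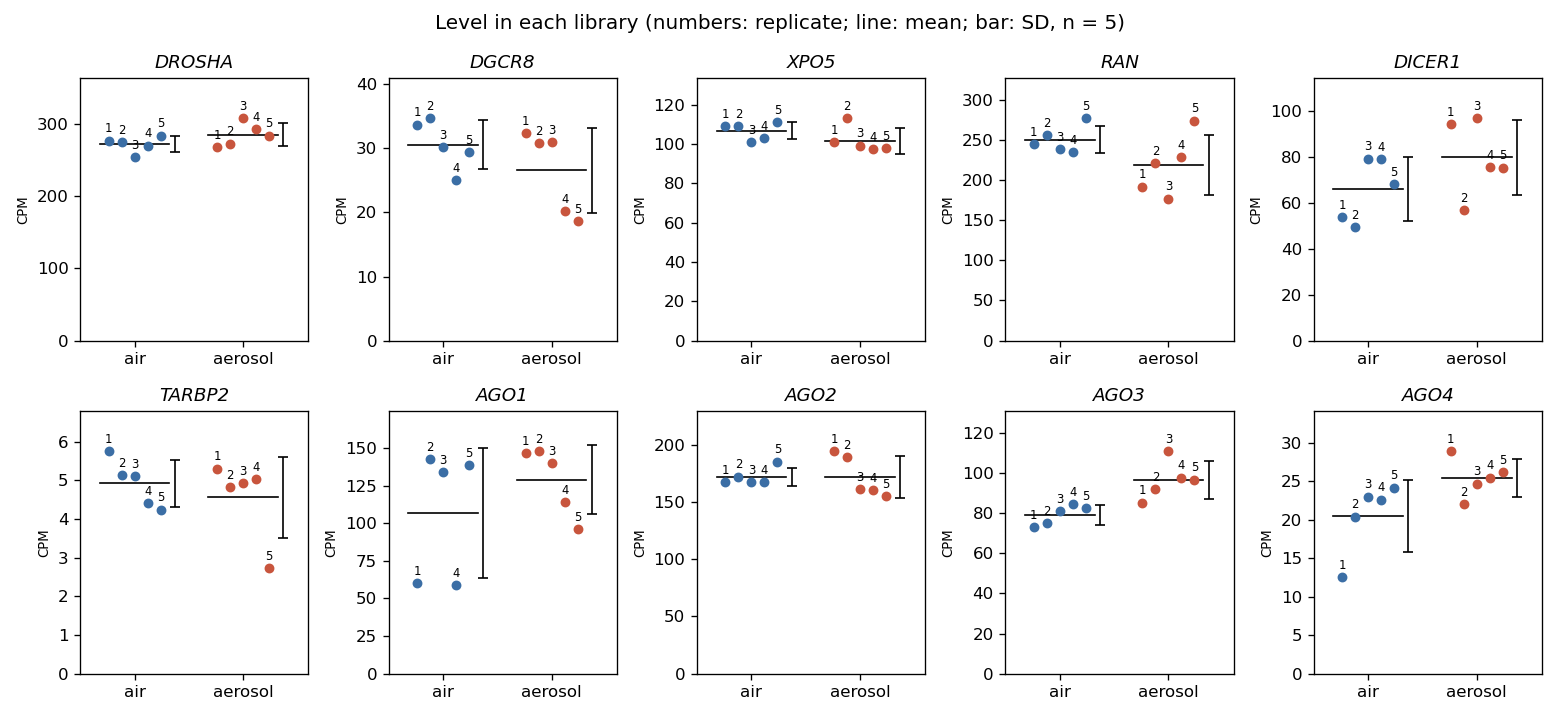
Level of each gene in CPM in every library, with filtered air in blue and e-cigarette aerosol in red. Numbers mark the replicate, the line the mean and the bar the SD of 5 libraries. AGO1 is near 60 CPM in air libraries 1 and 4, and AGO3 is the gene whose groups do not overlap.

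Export factors showed a low spread in air. XPO5 (chromosome 6, 43522334 to 43576038) was at 109, 109, 101, 103 and 111 CPM in air and at 101, 113, 99.1, 97.2 and 97.7 CPM after the aerosol. Library 2 was the highest of all 10, and the other 4 aerosol libraries lay below every air library, replicate 1 by less than 1 CPM. XPO5 had a log2 fold change of -0.07 ± 0.09, with a 95% interval from -0.25 to 0.12 (edgeR adjusted p = 0.751), and it was 0.01 under upper quartile scaling. The span of XPO5 overlaps that of POLR1C, a subunit of RNA polymerases I and III, which was at 8.50 to 18.9 CPM. Without a stated strand setting, reads of the overlap cannot be told apart.

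RAN (chromosome 12, 130872066 to 130877678), the small GTPase that powers nuclear transport in general, was at 245, 256, 239, 235 and 277 CPM in air. Aerosol libraries were at 192, 221, 177, 229 and 274 CPM. The 4 aerosol libraries 1 to 4 lay below every air library, and library 5 was close to the highest of them. The mean was 251 ± 16.6 CPM in air and 219 ± 37.5 CPM after the aerosol (SD, n = 5 per group). This is -0.20 ± 0.11 on the log2 scale (edgeR adjusted p = 0.405). Without aerosol libraries 4 and 5 it was -0.36 (edgeR adjusted p = 0.0851). Of 9 RAN pseudogene rows, RANP1 had 26 to 196 counts per library and no other had more than 17, against at least 10637 for RAN. The sources used here do not say how reads shared with such copies were treated.

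The XPO5 to RAN ratio was higher in aerosol libraries 1 to 3 than in 4 and 5. Its log2 value was -1.17, -1.24, -1.24, -1.19 and -1.31 in air. In the aerosol group it was -0.93, -0.96 and -0.84 in libraries 1 to 3, above all air libraries, and -1.23 and -1.49 in libraries 4 and 5. The difference of the means was 0.14 (n = 5 per group, two-sided exact permutation test, p = 0.254, or 0.389 after adjustment). Without libraries 4 and 5 it was 0.32, with no overlap. Leaving them out was decided after the data were seen, and they are the aerosol libraries that did not lie above the air range. The exact permutation test of 3 against 5 libraries gave 0.0179, the smallest p it allows, which is 0.125 after adjustment over 7. Both the non-overlap and this p follow from which libraries were left out, so no conclusion is drawn from them.

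The cytoplasmic cut is made by DICER1 (chromosome 14, 95086228 to 95158010), whose level varied within both groups. It was at 53.6, 49.4, 79.1, 78.9 and 68.1 CPM in air. It was at 94.2, 56.8, 96.6, 75.5 and 75.2 CPM after the aerosol. The groups overlapped, with aerosol libraries 1 and 3 above every air library and library 2 among the low air values. DICER1 had a log2 fold change of 0.28 ± 0.17, with a 95% interval from -0.10 to 0.65 (edgeR adjusted p = 0.453). The sign was kept under all 20 alternatives, between 0.18 and 0.37. The antisense gene DICER1-AS1 had between 0 and 104 counts per library, against at least 3951 for DICER1.

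TARBP2 (chromosome 12, 53500923 to 53506431) had the fewest counts of the members, between 147 and 497 per library. It was at 5.75, 5.14, 5.10, 4.41 and 4.24 CPM in air and at 5.30, 4.83, 4.92, 5.03 and 2.72 CPM after the aerosol. Aerosol libraries 1 to 4 lay within the air range, and library 5 lay below it. TARBP2 was at -0.11 ± 0.25 on the log2 fold scale (edgeR adjusted p = 0.872), and without aerosol replicate 5 it was 0.02. TARBP2 overlaps MAP3K12, a kinase gene, which was at 22.7 to 28.8 CPM in air and at 29.2 to 51.3 CPM after the aerosol (edgeR adjusted p = 0.114). Reads of the overlap cannot be told apart here either. The log2 ratio of TARBP2 to DICER1 was -3.72 ± 0.44 in air and -4.14 ± 0.46 after the aerosol (SD, n = 5 per group, adjusted p of 0.389 by the two-sided exact permutation test). The difference of -0.42 became -0.26 without aerosol replicate 5, -0.28 without libraries 4 and 5 and -0.20 between medians. PRKRA, the related partner of DICER1, was at 34.9 ± 5.48 CPM in air and 27.3 ± 8.23 CPM after the aerosol, with an edgeR adjusted p of 0.406. It was named after its values were seen.

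The Argonaute genes lie in separate places. AGO4, AGO1 and AGO3 follow each other on the same strand of chromosome 1, and AGO2 lies on chromosome 8 (140520156 to 140642313). The 3 neighbours had log2 fold changes of 0.31, 0.27 and 0.28, and AGO2 had 0.00, and none of these passed the test. AGO2 was at 167, 172, 167, 167 and 185 CPM in air and at 194, 189, 161, 160 and 155 CPM after the aerosol. Aerosol libraries 1 and 2 lay above and libraries 3 to 5 below the air range. The SD was 7.73 CPM in air and 18.2 CPM after the aerosol, with means of 171 and 172 CPM. On the log2 scale the SD of AGO2 was 0.06 and 0.15. The median SD of all genes with at least 5 CPM was also higher after the aerosol, at 0.21 and 0.32, and the difference in spread was not tested. The 95% interval of the log2 fold change of AGO2 ran from -0.20 to 0.20 (edgeR adjusted p = 0.996). The sign of so small a value changed with 10 of the 20 alternatives.

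AGO3 (chromosome 1, 35930718 to 36072500) came closest to the threshold. It was at 73.1, 75.3, 81.1, 84.5 and 82.5 CPM in air. The aerosol libraries were at 85.4, 92.1, 111, 97.9 and 96.9 CPM. Every aerosol library lay above every air library, which held for AGO3 alone among the members and for 7.45% of all genes tested. The mean was 79.3 ± 4.87 CPM in air and 96.6 ± 9.29 CPM after the aerosol (SD, n = 5 per group). AGO3 had a log2 fold change of 0.28 ± 0.10, with a 95% interval from 0.07 to 0.50 (edgeR adjusted p = 0.143). The adjusted p ranged from 0.051 with DESeq2 to 0.383 with scaling by library size alone, and AGO3 passed under none of the 20 alternatives.

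AGO1 (chromosome 1, 35869761 to 35930532) was at 2 separate levels within the air group. Air replicates 1 and 4 were at 60 and 59 CPM, and air replicates 2, 3 and 5 at 143, 134 and 139 CPM. After the aerosol it was at 147, 148, 140, 114 and 96.0 CPM. The aerosol libraries therefore lay near or below the higher air level and above the lower one. In counts, the air libraries held 5179, 12393, 11173, 3980 and 12817 reads of AGO1, so neither level rests on few reads. The SD in air, 0.67 on the log2 scale, was higher than that of 95.5% of the genes with at least 5 CPM, whose median was 0.21. AGO1 had a log2 fold change of 0.27 ± 0.27, with a 95% interval from -0.31 to 0.85 (edgeR adjusted p = 0.673), and it was 0.12 and 0.11 without air replicates 1 and 4 in turn and 0.43 without aerosol libraries 4 and 5.

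AGO4 (chromosome 1, 35807636 to 35857890) was at 12.5, 20.4, 23, 22.6 and 24.2 CPM in air and at 28.9, 22, 24.7, 25.5 and 26.2 CPM after the aerosol. Air replicate 1, one of the libraries low in AGO1, was the lowest, and 4 of 5 aerosol libraries lay above every air library. The log2 fold change was 0.31 ± 0.18, with a 95% interval from -0.08 to 0.70 (edgeR adjusted p = 0.406), and it was 0.17 without air replicate 1.

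The make-up of the Argonaute counts is a second view that needs no scaling between libraries. AGO2 held 45.9 ± 5.49% of the counts on the 4 genes in air and 40.6 ± 2.28% after the aerosol (SD, n = 5 per group), a difference of -5.30 points (two-sided exact permutation test, p = 0.0794, or 0.389 after adjustment). Its share was 53.4 and 50.1% in air libraries 1 and 4, where AGO1 was low, and 41.2 to 42.9% in the other air libraries. Leaving out single libraries moved the difference of the AGO2 share between -6.47 points and -3.43 points, the latter without air replicate 1. The AGO2 difference was -5.46 points without aerosol libraries 4 and 5 and -1.41 points between medians. AGO1 held 27.4 ± 8.24% and 30.3 ± 3.06%. AGO3 held 21.3 ± 3.01% and 23 ± 3.21%, and AGO4 held 5.41 ± 1.02% and 6.06 ± 0.817%. Leaving out single libraries moved the difference for AGO1 between 0.469 and 4.73 points, for AGO3 between 1.02 and 2.82 points and for AGO4 between 0.298 and 0.991 points. Without aerosol libraries 4 and 5 these differences were 4.98, 0.26 and 0.218 points, and between medians that of AGO3 was 4.59 points. The adjusted p of these 3 shares over all libraries was 0.468, 0.389 and 0.389 in the same exact permutation test. The 95% Wilson interval of any such share in any library was at most 1.36 points wide and covers counting error only.

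**Figure D3:**
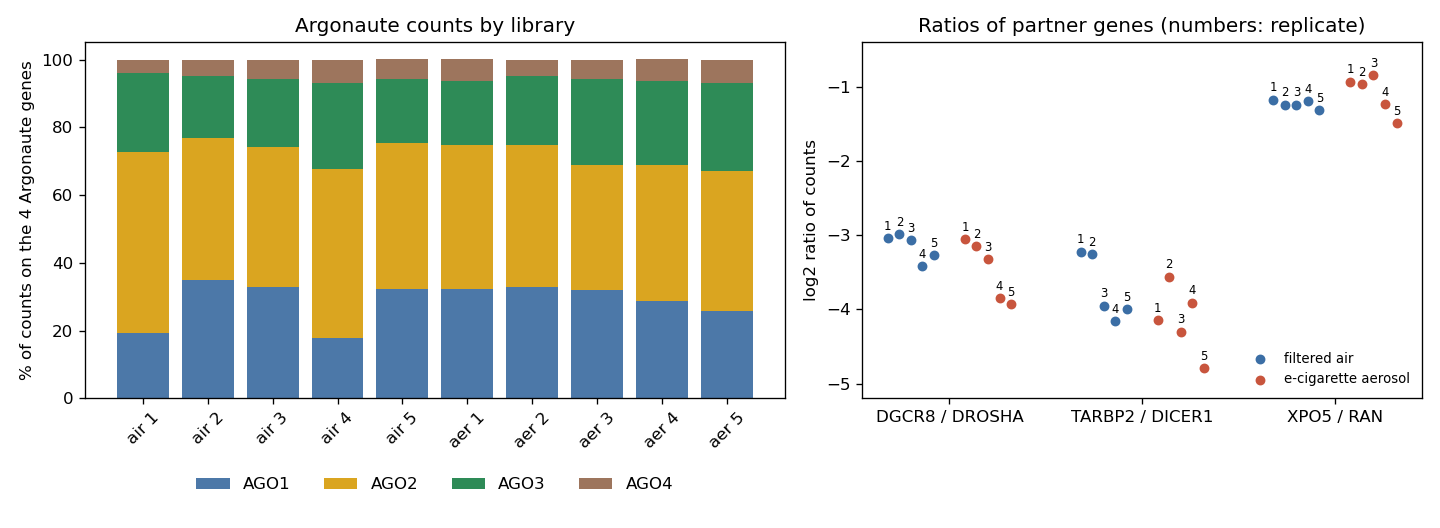
Left, percentage of the counts on the 4 Argonaute genes that fell on each, by library (air and aer, for filtered air and e-cigarette aerosol, with the replicate number). Right, log2 ratio of counts of partner genes in each library. AGO1 holds 19.2 and 17.7% in air libraries 1 and 4, and XPO5 to RAN is highest in aerosol libraries 1 to 3.

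The starts of the 3 neighbouring Argonaute genes are shown because AGO3 alone did not overlap between groups and the 3 log2 fold changes were alike. None of the 3 passed the test, and their values in single libraries differed, with AGO1 at 2 levels in air. Each line gives the 250 bases before the start in the RefSeq promoter table (GRCh38.p14, plus strand, 5′ to 3′), at chr1:35807766-35808015 for AGO4, chr1:35882959-35883208 for AGO1 and chr1:35930855-35931104 for AGO3. All 3 windows lie inside the annotated gene span, which begins at an earlier start. Capitals mark the GC box GGGCGG and the CCAAT box, on either strand.
AGO4: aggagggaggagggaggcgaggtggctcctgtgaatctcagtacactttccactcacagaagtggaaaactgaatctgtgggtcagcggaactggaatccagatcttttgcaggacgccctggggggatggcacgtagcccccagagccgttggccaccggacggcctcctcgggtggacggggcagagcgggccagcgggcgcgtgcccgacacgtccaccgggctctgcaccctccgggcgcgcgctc
AGO1: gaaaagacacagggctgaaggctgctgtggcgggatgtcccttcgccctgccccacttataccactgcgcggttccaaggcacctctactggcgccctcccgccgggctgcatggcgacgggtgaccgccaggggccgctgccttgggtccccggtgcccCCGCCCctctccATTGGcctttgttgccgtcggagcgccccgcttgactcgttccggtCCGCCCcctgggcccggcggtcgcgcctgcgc
AGO3: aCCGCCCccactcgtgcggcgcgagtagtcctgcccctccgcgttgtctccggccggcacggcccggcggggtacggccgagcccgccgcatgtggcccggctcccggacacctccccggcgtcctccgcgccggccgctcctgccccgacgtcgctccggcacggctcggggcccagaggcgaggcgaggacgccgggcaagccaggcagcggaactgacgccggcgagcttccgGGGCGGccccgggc
The windows of AGO1 and AGO3 hold 2 GC boxes each and that of AGO4 holds 0, and AGO1 has 1 CCAAT box. Of all 35116 windows of this length in the table, 42.6% hold a GC box and 32% a CCAAT box. The GC content was 66.4% for AGO4, 71.6% for AGO1 and 80.0% for AGO3. These matches describe the letters and say nothing of binding, which was not measured.

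In all, 6 lists of genes around the pathway were followed in the same fit, and 3 of their 101 tested genes changed, which is 2.97% against 3.01% of all genes. Among 16 Microprocessor partners none passed, with 9 above 0 and 7 below and a median of 0.01. HNRNPA2B1, a nuclear RNA-binding protein, was at 1117 ± 113 CPM in air and 1619 ± 522 CPM after the aerosol (SD, n = 5 per group, edgeR adjusted p = 0.135), with 1882 and 2392 CPM in libraries 4 and 5. Its log2 fold change was 0.54, and 0.18 without those libraries (edgeR adjusted p = 0.447). HNRNPA1, its relative, was at 0.25 on the log2 fold scale (edgeR adjusted p = 0.419), and -0.03 without those libraries.

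Of 14 genes of the Ran cycle and nuclear transport 1 rose, RANBP2, and the list's median was 0.07. RANBP2, the nuclear pore protein that binds RAN-GTP, was at 465, 465, 396, 469 and 560 CPM in air and at 569, 591, 707, 792 and 764 CPM after the aerosol. The groups did not overlap. Its log2 fold change came to 0.54 ± 0.12 (edgeR adjusted p = 0.0301). The call was lost without any 1 of air replicates 1 to 4 or aerosol replicates 3 to 5, with adjusted p of 0.0793, 0.0850, 0.0918, 0.0825, 0.0732, 0.0699 and 0.0576. Without aerosol libraries 4 and 5 together it was 0.39 (edgeR adjusted p = 0.100). RANGAP1, which stimulates GTP hydrolysis by RAN, had -0.52 ± 0.16 (edgeR adjusted p = 0.100), or -0.33 without those libraries, and was named after its values were seen.

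Of 18 genes of Argonaute loading and regulation 1 fell, PPP6C, and 16 were below 0, with a median of -0.22. Of all genes tested 50.4% were below 0, with a median of 0.00. PPP6C, the catalytic subunit of protein phosphatase 6, which with ANKRD52 removes phosphates from Argonaute, was at 70.1, 126, 127, 72.3 and 140 CPM in air. After the aerosol it was at 60.7, 57.2, 69.9, 69.2 and 53.7 CPM. Air libraries 1 and 4, the low ones for AGO1, lay just above the aerosol range, and the other 3 far above it. The log2 fold change was -0.78 ± 0.20 (edgeR adjusted p = 0.0498). The call was lost without any 1 of air replicates 2, 3 and 5 or of the 5 aerosol replicates, with adjusted p of 0.0716 to 0.132. FKBP4, a co-chaperone of HSP90 named after its values were seen, had -0.52 ± 0.14 (edgeR adjusted p = 0.0680), and -0.33 without aerosol libraries 4 and 5. Its groups did not overlap, as held for 7.45% of all genes tested. FKBP4 passed with DESeq2, with no low-count filter, with the replicate block and without aerosol replicate 2.

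Among 9 double-stranded RNA-binding proteins none passed (median 0.05), and DHX9 and ADAR had -0.05 and 0.05, with edgeR adjusted p of 0.843 and 0.831 and a sign that changed with another scaling. Among 29 silencing effectors and decay factors none passed either (median -0.05). PABPC1, the cytoplasmic poly(A)-binding protein, and CNOT1, the scaffold of the CCR4-NOT deadenylase, had -0.02 and 0.08, with edgeR adjusted p of 0.953 and 0.638 and a sign that likewise changed. XRN1, the main cytoplasmic 5′ to 3′ exonuclease, named after its values were seen, was at 137 ± 19.9 CPM in air and 187 ± 22.6 CPM after the aerosol (SD, n = 5 per group, edgeR adjusted p = 0.0606). It passed under 7 of the 20 alternatives, DESeq2 and upper quartile scaling among them, and PAN2, a deadenylase subunit at 0.48 on the log2 fold scale (edgeR adjusted p = 0.110), passed with DESeq2. The GW182 scaffolds that Argonautes recruit, named after their values were seen, were at 149 and 196 CPM for TNRC6A, 116 and 94.9 CPM for TNRC6B and 11.0 and 13.1 CPM for TNRC6C (means in air and aerosol, edgeR adjusted p of 0.149, 0.712 and 0.614). Without aerosol libraries 4 and 5 the log2 fold change of TNRC6B went from -0.28 to -0.12 and that of TNRC6C from 0.26 to 0.47.

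Of 15 tested genes of microRNA tailing and turnover 1 fell, SND1, and the median was -0.06. SND1, a Tudor-domain protein of silencing complexes with nuclease activity, was at 204, 220, 231, 215 and 202 CPM in air. After the aerosol it was at 175, 166, 159, 160 and 146 CPM. All aerosol libraries lay below all air libraries. The log2 fold change was -0.41 ± 0.08 (edgeR adjusted p = 0.0223), and it was called in 16 of 20 alternatives. The call was lost without air replicate 2, 3 or 4 or aerosol replicate 3, with adjusted p of 0.0670, 0.0751, 0.0667 and 0.0587. TUT4 and TUT7, the uridyltransferases that add U to let-7 precursors and were named after their values were seen, had 0.44 and 0.52 (edgeR adjusted p = 0.133 and 0.0984). Without aerosol libraries 4 and 5 they had 0.17 and 0.28 (edgeR adjusted p = 0.495 and 0.344). TUT7 passed with DESeq2 and without aerosol replicate 2.

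**Figure D4:**
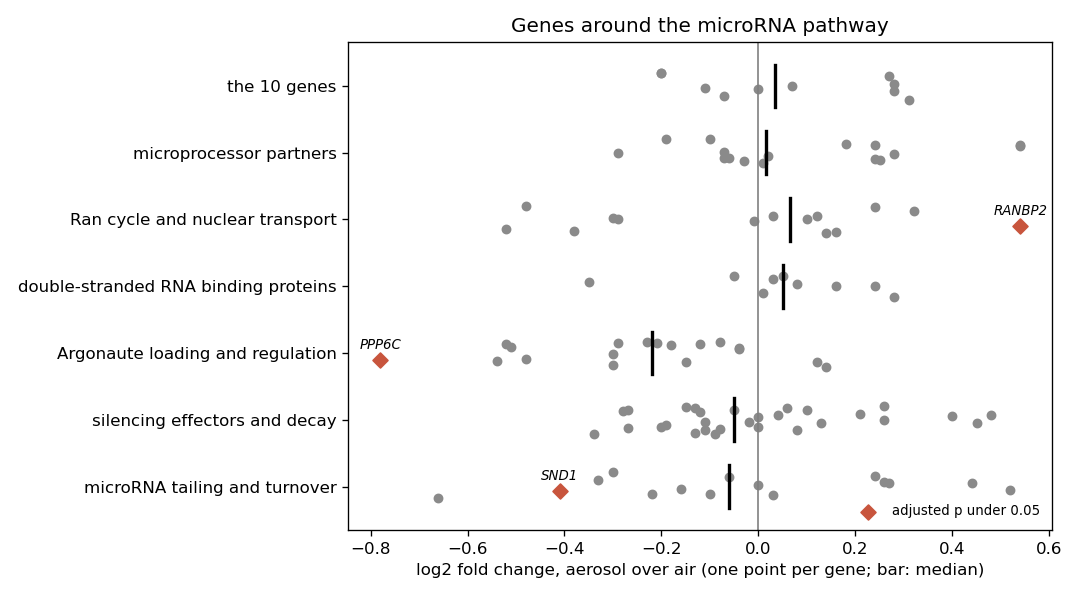
Log2 fold change of every tested gene of the 6 lists and of the 10 genes, aerosol over air, with 1 point per gene and the median as a bar. Red diamonds mark the 3 genes past the threshold, RANBP2 above 0 and PPP6C and SND1 below.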

How the data were processed

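The authors deposited 1 table of whole-number read counts per gene for each of 10 mRNA libraries of AC16 cells, without normalization. Per the submitters' processing notes, HISAT, featureCounts 1.5.0-p3, DESeq 1.8.3 and hg38 were used, with roles and settings not given in the sources used here. The tables held 0 columns that no sample of the series explains. Symbols came from the files and a table of Ensembl identifiers (58207 matched). RefSeq positions of GRCh38.p14 were matched by symbol, and 9 of the 10 genes had a promoter window.

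Differences were tested with edgeR 4.0.16 under R 4.3.3, using TMM scaling, filterByExpr, a robust quasi-likelihood F test on the group alone, and Benjamini-Hochberg adjustment over 20166 genes. It left 38569 out as too low. Standard errors and 95% intervals of log2 fold changes were derived from its F statistic. Scripts were tested on simulated data. CPM uses the TMM library size. The files hold no gene length, so the planned scaling of the Argonaute shares by length was not made, and levels were not compared between genes. The 7 ratios and shares were tested by exact two-sided permutation over the 252 assignments of 5 of 10 libraries. No 2 libraries of a group agreed within sampling noise (lowest chi-square per degree of freedom 59.0).

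The members and lists were chosen with earlier results of these data known. Besides the members, the named genes are, from each list, up to 4 past the threshold, or else the 2 with the highest level. For DROSHA, DICER1 and AGO2 they also include the 3 most alike genes. Alternatives were other scalings, DESeq2 1.42.0, limma-voom 3.58.1, other filters, protein-coding genes only, a replicate block, and leaving out each library. Leaving out aerosol libraries 4 and 5 together was added after the data were seen.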

Additional observations from a re-analysis of the deposited data

Results flagged for a closer look

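In 34 groups of 5 values, for the level of each member and each ratio in each condition, 2 had 1 library far from the other 4. Chance flags about 1 in 20 such groups. XPO5 in aerosol replicate 2 was at 113 CPM, above the other 4 aerosol libraries at 97.2 to 101 CPM. TARBP2 in aerosol replicate 5 was at 2.72 CPM, from 147 counts, below the other 4 at 4.83 to 5.30 CPM.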

How the results depend on the processing

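No member was called under any of the 20 alternatives. Over all genes, 608 changed, 53.8% of them upwards, against 73.8% with upper quartile scaling and 43.4% with library size alone, which moved the median log2 fold change of all genes from 0.00 to 0.08 and -0.10. DESeq2 called 1598 genes, and leaving out single libraries gave 183 to 757. In the pathway lists 3 genes changed, against 9 with library size alone and 9 with DESeq2. The replicate block gave 5, and leaving out single libraries gave 0 to 6. Without aerosol libraries 4 and 5 together 4 list genes were called, all lower: HSP90AB1, P4HA1, RANBP1 and SND1. Of these, SND1 was also called in the main fit. The labels do not say whether libraries with the same replicate number are paired. The correlation of same-numbered deviations was at most 0.0529, which does not settle this. The replicate block called 450 genes and 0 members. Small values changed sign. AGO2 was -0.085 with library size alone, -0.026 with no filter, -0.002 with limma-voom, -0.004 with the replicate block, and -0.049 to 0.03 without single libraries. DROSHA was -0.031 with library size alone, and XPO5 0.012 with upper quartile scaling. Without aerosol libraries 4 and 5, DGCR8 was 0.028, TARBP2 0.019 and HNRNPA1 -0.031. TARBP2 was -0.175 to 0.021 without single libraries. With library size alone, ADAR was -0.054 and CNOT1 -0.022. DHX9 was 0.036 with upper quartile scaling, 0.014 with protein-coding genes only and -0.089 to 0.004 without single libraries. PABPC1 was 0.009 with RLE scaling and with DESeq2, 0.065 with upper quartile scaling, 0.027 with the 1 CPM filter, 0.041 with protein-coding genes only and -0.074 to 0.053 without single libraries. With medians, the AGO1 share differed by -0.238 points, against 2.89 with means. The cause of these changes was not tested. PPP6C also lost its call under RLE and upper quartile scaling, limma-voom, the 1 CPM filter, protein-coding genes only and the replicate block (edgeR or limma adjusted p of 0.0516 to 0.0956), and without aerosol libraries 4 and 5 (0.158). TARBP2, with as few as 147 counts, is the member limited most by depth.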

Other observations

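The genes most alike in pattern to the core nucleases and to AGO2 were taken from 10166 other protein-coding genes with at least 5 CPM, by the root-mean-square difference in centred log2 CPM over the 10 libraries. For DROSHA they were C6orf62, TRIP12 and KLF3, at 0.0360, 0.0447 and 0.0519. For AGO2 they were FMN2, MTERF3 and IPO9, at 0.0507, 0.0535 and 0.0610. The nearest to DICER1, HIPK1, CCDC7 and AGFG1, were farther, at 0.160, 0.177 and 0.191. For AGO1, added after its values were seen, PTPRB, APLF and ASXL1 were at 0.244, 0.277 and 0.283. The difference is not scaled by a gene's own spread, so it tends to be larger for genes that vary more. AGO1 had the largest SD in air of the members, 0.67 on the log2 scale. These values therefore do not rank how well the pattern of each member is matched.

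LIN28A, which blocks the processing of let-7 precursors, had 72, 148, 122, 195 and 148 counts in the air libraries and 70, 60, 44, 0 and 146 in the aerosol libraries. These counts are not scaled by library size. LIN28A had a log2 fold change of -0.66 and did not pass the test (edgeR adjusted p = 0.766). Its paralogue LIN28B had 29 counts in aerosol library 5 and 0 in the other 9. TNRC6B varied within air from 66.7 to 188 CPM, with libraries 2 and 4 highest. These genes were chosen after their values were seen.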
